A study of Mus musculus with 6 samples.

Results

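Cell cycle and proliferation genes of the mouse aorta are described here, a list of 45 genes chosen by name: the cyclins and their kinases, the inhibitors of these kinases, the retinoblastoma and p53 regulators, the DNA replication machinery and the proteins of mitosis. Each gene was read from the probe set with the highest mean signal over all arrays among those that the array annotation assigns to that gene alone. Of the 45 genes, 43 had such a probe set, out of 12393 genes in all, and Trp53 and Ccnb1 were not analysed here. A signal is the linear value of 1 probe set on 1 array. Signals of different probe sets were compared or added only to choose probe sets and named genes, to apply the filter and to sum markers. A filter on low values, set at the 40th percentile of the mean log2 value over all arrays (equal to a signal of 40.7), left 25 of the 43 members for the test of the diets and 18 below it.

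Aortic RNA was hybridised to 6 Affymetrix arrays, of which 3 came from the high fat diet and 3 from regular chow. Behind each array was the pooled RNA of 3 aortas that had been cleared of adventitia and of the fat around the vessel, so that n = 3 pools per diet and no animal was measured singly. The design text calls the pools independent, and the spread behind each p-value is that of pools rather than of single mice. All groups were C57BL/6J mice, an inbred strain with no engineered allele. The labels gave the sex as male except for high fat replicate 1, where none was stated. The high fat diet was given for 16 to 18 weeks, and for high fat replicates 2 and 3 its start is stated as 10 weeks of age. High fat replicate 1 was labelled with an age of 16 to 20 weeks, chow replicates 2 and 3 with 26 to 28 weeks and chow replicate 1 with none. The label of high fat replicate 1 does not say at which point of the diet that age applies.

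Median signals lay between 58.4 and 66.6, and between 42.0% and 46.3% of the signals on an array were under 50. High fat replicate 2 had the lowest mean correlation with the other arrays, 0.953 across probe sets, against 0.961 to 0.965 for the rest. Smooth muscle markers were all past the filter (10 of 10), with Myh11, the smooth muscle myosin heavy chain, at 3212 to 3920. Signal of other cell types was present as well: Ucp1, the uncoupling protein of brown fat, lay between 2122 and 3664, and the mean of 13 cardiac muscle markers, taken as log2 distance from the 6-array mean, ran from -1.23 in chow replicate 3 to 1.28 in high fat replicate 2.

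Cell division is driven by cyclins that switch on cyclin-dependent kinases in turn. D-type cyclins with Cdk4 or Cdk6 start to phosphorylate the retinoblastoma protein, which frees E2F factors to switch on the genes of DNA replication, and A- and B-type cyclins with Cdk1 then drive mitosis. Smooth muscle cells of the healthy adult artery are largely quiescent and can re-enter the cycle after injury, whereas macrophages and endothelial cells of the vessel can divide locally. Genes of the late cell cycle are classically controlled through the CHR element and CCAAT boxes in their promoters, and genes of replication through E2F sites.

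Promoters of the mitotic members held the letters of the CHR and the CCAAT box together more often than those of the other members, a feature that the choice of genes did not use and that was counted without a test. RefSeq windows of 300 bases (250 before and 50 after the start of transcription, GRCm38.p6) existed for 37 of the 45 members, 42 windows in all. The CHR was searched as TTTGAA, the CCAAT box as CCAAT, and the E2F site as TTTCGCGC, TTTGGCGC, TTTCCCGC or TTTGCCGC, each on both strands. Matches of different motifs may share bases, and none did in the sequences printed here. A CHR and a CCAAT box occurred together in 10 of 14 windows of the mitotic members (mitotic cyclins and kinase, spindle and checkpoint genes, Mki67 and Top2a), or 71.4%. Among the other members this was 1 of 28 (3.57%, Mcm2), among all 32851 windows 6.95% and among the 12566 windows of genes on the array 5.00%. An E2F motif was found in 7 of 42 member windows (16.7%): Mcm3, Mcm5, Mcm6, Mcm7, Cdk1, Cdk2 and Cdkn2a, against 2.26% of all windows and 3.38% of those of genes on the array.

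The 250 bases before the start are shown for the members whose diets differed most by unadjusted p in the fits with and without the filter and that had a window (Top2a, Cdc20, Plk1 and Ccne1), and for Mki67, the antigen used to stain dividing cells. Capitals mark CHR and CCAAT matches on either strand, and no E2F match fell in these 5 windows. They lie at chr11:99024190-99024439, minus strand (Top2a), chr4:118437344-118437593, minus strand (Cdc20), chr7:122159185-122159434, plus strand (Plk1), chr7:135716380-135716629, minus strand (Mki67) and chr7:38107491-38107740, minus strand (Ccne1), each 5′ to 3′ on the strand of the gene.
Top2a: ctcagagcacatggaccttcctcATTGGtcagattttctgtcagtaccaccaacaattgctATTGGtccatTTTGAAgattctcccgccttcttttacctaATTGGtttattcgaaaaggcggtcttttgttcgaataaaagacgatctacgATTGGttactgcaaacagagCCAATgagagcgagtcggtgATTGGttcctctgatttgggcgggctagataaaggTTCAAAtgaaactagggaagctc
Cdc20: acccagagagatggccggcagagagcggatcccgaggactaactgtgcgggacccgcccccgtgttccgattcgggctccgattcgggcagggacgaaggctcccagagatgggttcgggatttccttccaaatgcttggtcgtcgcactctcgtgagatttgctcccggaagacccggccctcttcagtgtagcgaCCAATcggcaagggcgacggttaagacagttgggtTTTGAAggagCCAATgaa
Plk1: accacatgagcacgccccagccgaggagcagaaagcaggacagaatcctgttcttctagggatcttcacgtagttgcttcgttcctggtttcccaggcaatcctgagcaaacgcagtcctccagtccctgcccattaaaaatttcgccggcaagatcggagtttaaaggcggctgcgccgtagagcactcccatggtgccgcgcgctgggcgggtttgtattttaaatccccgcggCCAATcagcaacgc
Mki67: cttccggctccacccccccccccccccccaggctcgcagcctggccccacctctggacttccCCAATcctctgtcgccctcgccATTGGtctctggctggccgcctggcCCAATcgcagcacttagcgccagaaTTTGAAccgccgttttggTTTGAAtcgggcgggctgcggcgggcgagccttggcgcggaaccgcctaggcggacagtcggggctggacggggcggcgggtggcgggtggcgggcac
Ccne1: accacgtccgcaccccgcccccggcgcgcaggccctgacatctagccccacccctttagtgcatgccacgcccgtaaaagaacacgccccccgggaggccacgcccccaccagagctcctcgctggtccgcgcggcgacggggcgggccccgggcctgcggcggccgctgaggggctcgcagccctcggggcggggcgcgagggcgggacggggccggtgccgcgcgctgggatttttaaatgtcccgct
Top2a held 6 CCAAT boxes and 2 CHR matches, the nearer CHR at position -23 from the start. Cdc20 had its CHR at -18 between CCAAT boxes at -53 and -8. Mki67 had CHR matches at -116 and -98. In Plk1 the CCAAT box lay at -14 and the CHR at position 31 after the start, outside the letters shown, and Ccne1 held none of the motifs. A match is a description of the letters and was not tested for binding.

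The comparison of the diets asked whether a high fat diet changed the expression of these genes in the aorta. No member passed an adjusted p of 0.05 in limma over all 13575 probe sets tested, in either direction, where 0.0737% of all probe sets did (10 of 13575). At an unadjusted p under 0.05, 3 of the 25 members past the filter had higher signal on high fat diet and 0 had lower signal, or 12.0% against 7.03% of all probe sets tested (3.92% higher and 3.11% lower). These 3 were Ccnd1, Cdc20 and Top2a. The chow mean of Top2a, 35.3, lies under the filter, so that it was tested only through its high fat pools, and without it the count is 2. The share is therefore a description. Means were higher for 12 and lower for 13 members, where 48.2% of all probe sets tested had a higher mean, with a median log2 fold change of -0.01, beside -0.01 over all probe sets tested. Fold changes throughout are high fat minus chow on the log2(signal + 6) scale, which understates the change of low genes.

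The intervals show how much change these arrays leave room for. Of the 25 members, 21 had a 95% interval within 1 log2 unit of 0 on both sides, as had 91.7% of all probe sets tested. An interval within 0.5 was reached for 6 members, against 29.5% of all probe sets tested. The 4 whose interval reached past 1 log2 unit were Ccnd1, Cdc20 and Top2a on the higher side and Cdkn1b on the lower side. In bulk RNA, fewer dividing cells and less RNA per cell cannot be told apart.

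**Figure D1:**
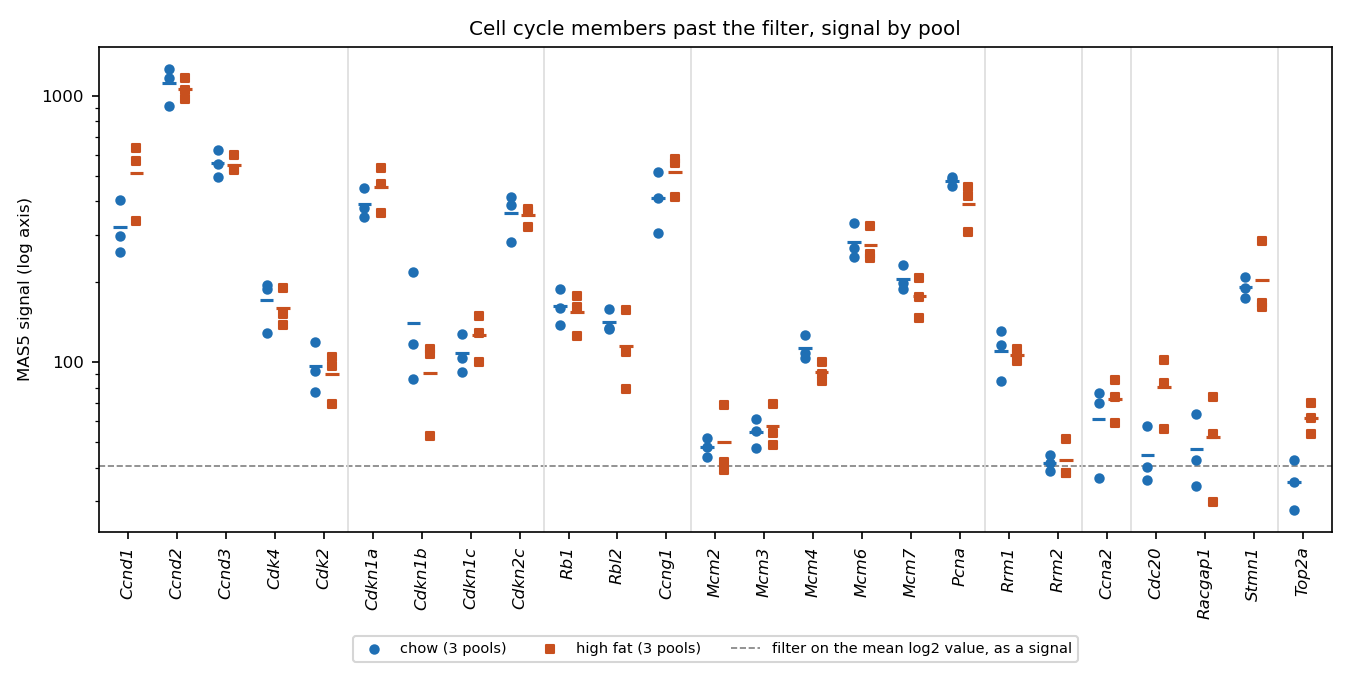
Signal of the 25 members past the filter (log axis) in each of 3 chow and 3 high fat pools, with short bars at the group means, grey lines between role groups and a dashed line at the filter (40.7). In the probe sets used, Top2a is the only one of these members with all high fat pools above all chow pools, while Mcm4 and Pcna have all high fat pools below.

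**Figure D2:**
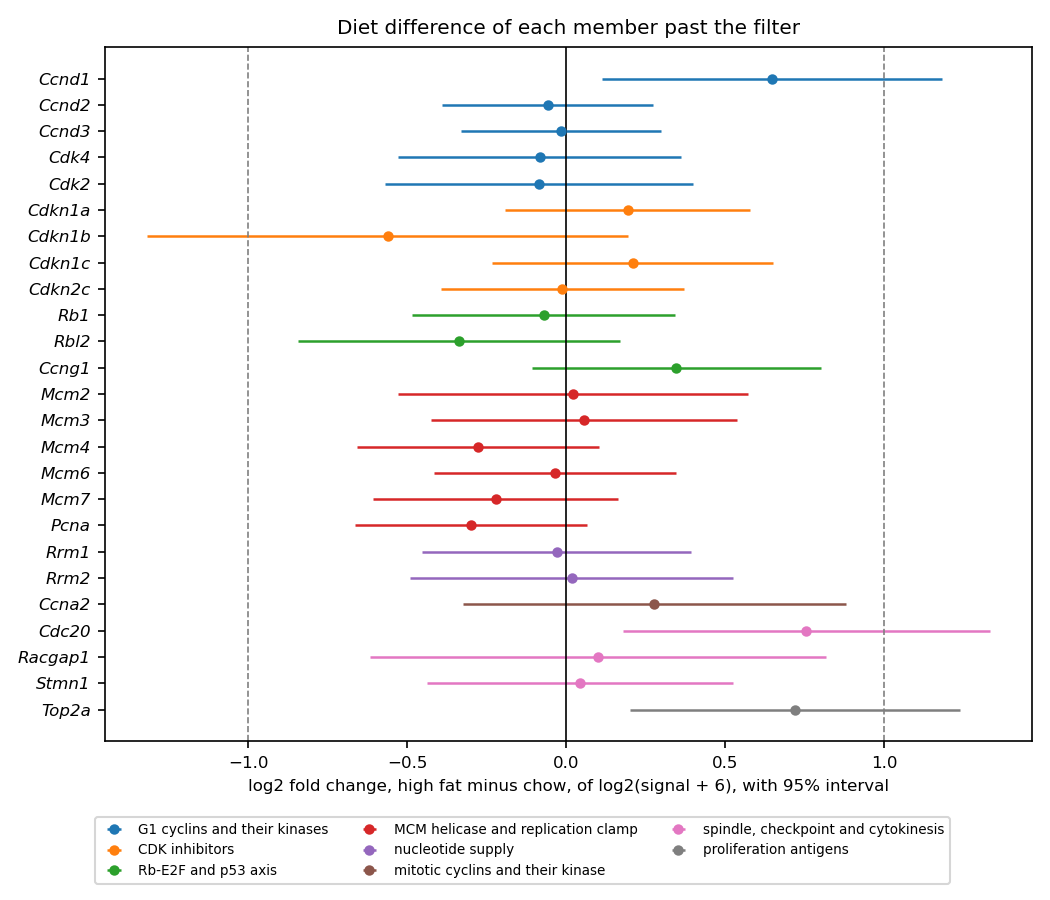
Log2 fold change (high fat minus chow) of the 25 members past the filter with 95% intervals from limma, coloured by role. Dashed lines mark 1 log2 unit, and the intervals of Ccnd1, Cdc20 and Top2a lie above 0 without passing the adjustment over all probe sets.

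Among the cyclins and kinases of the first gap phase, Ccnd1 was the 1 of 5 tested members with an unadjusted p under 0.05, and its difference from the other members was not tested. Ccnd1 encodes cyclin D1, the D-type cyclin that growth factors induce. Its signals, here and for the genes that follow in the order of replicates 1 to 3, were 338.9, 635.6 and 567 on high fat diet and 257.5, 406.2 and 297.4 on chow. High fat replicates 2 and 3 lay above all chow pools, and replicate 1 lay below chow replicate 2. The log2 fold change was 0.65 ± 0.24 (SE, 95% interval 0.11 to 1.18, unadjusted p = 0.0223, adjusted p = 0.630, limma). The other 2 Ccnd1 probe sets had 0.41 and 0.57, with unadjusted p-values of 0.0256 and 0.0288 in limma, so that the 3 gave the same direction. In these other 2, unlike the probe set used, all high fat pools lay above all chow pools. With the mean of the macrophage markers as a covariate the Ccnd1 value was 0.22 ± 0.42 (SE). That mean was itself higher in every high fat pool than in every chow pool, so this fit cannot cleanly separate it from the diet.

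Ccnd2, cyclin D2, had 1168, 968.7 and 1046 on high fat diet and 1257, 1163 and 913.3 on chow. The diets overlapped fully, with a log2 fold change of -0.06 (interval -0.39 to 0.27, adjusted p = 0.953, limma), and its 5 probe sets past the filter had -0.24 to -0.06. Cdk4, the kinase partner of D-type cyclins, had 136.9, 151.3 and 189 against 193.9, 188.4 and 128.1 on chow, a log2 fold change of -0.08 (-0.53 to 0.36), and its 3 probe sets lay between -0.08 and -0.07. Ccnd3, cyclin D3, had -0.02 (-0.33 to 0.30) and Cdk2, the kinase of cyclins E and A, -0.08 (-0.57 to 0.40). Cdk4 and Ccnd2 thus showed no difference beyond the spread between pools, and neither did Ccnd3 or Cdk2. In this group 1 of 5 tested members had a higher mean and 4 a lower one.

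The other 2 members of the group were under the filter. Ccne1, cyclin E1, which drives entry into DNA replication, had 7.8, 8.1 and 11.1 on high fat diet and 16.6, 17.4 and 24 on chow. All its high fat pools lay below all chow pools, at signals where background cannot be separated, and the fit without a filter gave -0.75 (unadjusted p = 0.0197, adjusted p = 0.782, limma). Cdk6, the other kinase of D-type cyclins, had 8.2 to 22.3 on high fat diet and 2.1 to 16.2 on chow.

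Cdk inhibitors did not differ between the diets beyond their spread. Cdkn1a, the p21 inhibitor that p53 induces, had 532.1, 361.8 and 463.8 on high fat diet and 349.5, 379.5 and 448 on chow. High fat replicates 1 and 3 were above all chow pools and replicate 2 was inside their range, and the log2 fold change was 0.19 ± 0.17 (SE, adjusted p = 0.856, limma). Cdkn1a ranged from 0.069 without high fat replicate 1 to 0.34 without high fat replicate 2, and had 0.57 with the macrophage covariate. Cdkn1b, the p27 inhibitor linked to quiescence, had 111.5, 52.7 and 106.8 against 216.5, 86 and 116.2 on chow. The difference, -0.56 ± 0.34 (SE) on the log2 scale (adjusted p = 0.787, limma), rested on chow replicate 1 and high fat replicate 2: it was -0.21 without the former and -0.24 without the latter. A second Cdkn1b probe set, under the filter, had 41.1, 76.6 and 38.8 against 17.5, 52.8 and 36 on chow, with the opposite sign (0.53 without a filter, unadjusted p = 0.205, limma). Averaged over both probe sets the Cdkn1b value was -0.016.

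Cdkn1c, the p57 inhibitor, had a log2 fold change of 0.21 (interval -0.23 to 0.65) and Cdkn2c, the p18 inhibitor of Cdk4 and Cdk6, -0.01 (-0.39 to 0.37). Cdkn2a, the locus of p16 and p19Arf, was under the filter at 19.4 to 37.6 on high fat diet and 22.7 to 26.4 on chow.

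Regulators around the retinoblastoma protein and p53 gave small values of both signs. Ccng1, cyclin G1, a p53 target, had 559.4, 415 and 578.9 on high fat diet and 514.4, 304.6 and 412.5 on chow. High fat replicates 1 and 3 were above all chow pools, with 0.35 ± 0.21 (SE) on the log2 scale (adjusted p = 0.777, limma) and 0.16 to 0.35 over its 3 probe sets. Ccng1 had 0.15 without chow replicate 2 and 0.52 without chow replicate 1. Rbl2, the pocket protein p130 that represses E2F targets in resting cells, had 108.9, 78.8 and 155.9 against 158.4, 132.4 and 133.9 on chow, which gave -0.34 ± 0.23 (SE) on the log2 scale and an adjusted p of 0.805 in limma. Leaving out high fat replicate 2 gave -0.11 for Rbl2 and leaving out replicate 3 of that diet gave -0.58, and its second probe set had -0.38. Rb1, the retinoblastoma protein, had -0.07 (interval -0.48 to 0.34), and E2f1, which drives replication genes, was just under the filter at 28.1 to 49.3 on high fat diet and 33.9 to 53.5 on chow.

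Genes of the replication fork gave values of both signs, and none passed the test. Pcna, the sliding clamp of the replicative polymerases, had 306.9, 418.5 and 451.7 on high fat diet and 456.2, 492.3 and 486.5 on chow. All high fat pools were below all chow pools, the log2 fold change was -0.30 ± 0.17 (SE, interval -0.67 to 0.07, adjusted p = 0.752, limma), and without high fat replicate 1, the lowest pool, it was -0.14. With the macrophage covariate Pcna had -0.62 (unadjusted p = 0.0556, limma), and its unadjusted p was under 0.05 in 3 of 20 alternatives. Mcm4, a subunit of the replicative helicase, had 90.3, 100.1 and 84.3 against 103.3, 125.9 and 108 on chow, again without overlap, and with -0.28 ± 0.17 (SE) on the log2 scale (adjusted p = 0.787, limma). Diets were separated without overlap in 3 of the 25 members, 1 higher and 2 lower. This was 12.0%, where 12.3% of all probe sets tested were so separated. The 1 higher was Top2a, tested only through its high fat pools, and without it only the 2 lower remain. The share is therefore a description.

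The other helicase subunits past the filter were Mcm7 at -0.22 (interval -0.61 to 0.16), Mcm6 at -0.04 (-0.42 to 0.35), Mcm2 at 0.02 (-0.53 to 0.57) and Mcm3 at 0.06 (-0.42 to 0.54). A second Mcm6 probe set past the filter had -0.35 (unadjusted p = 0.153, limma). Probe sets of Mcm7 disagreed in sign, from -0.27 to 0.19 over 4, the only 1 of 9 members with several tested probe sets for which they did. A second Mcm2 probe set, under the filter, had 31.8, 69.1 and 27.5 against 23.3, 24.9 and 20.5, without overlap (0.66 without a filter, unadjusted p = 0.0845, limma). Mcm5 was under the filter at 21.8 to 34 on high fat diet and 31.8 to 40.1 on chow. Over the 6 tested members of this group 4 had lower and 2 higher means.

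**Figure D3:**
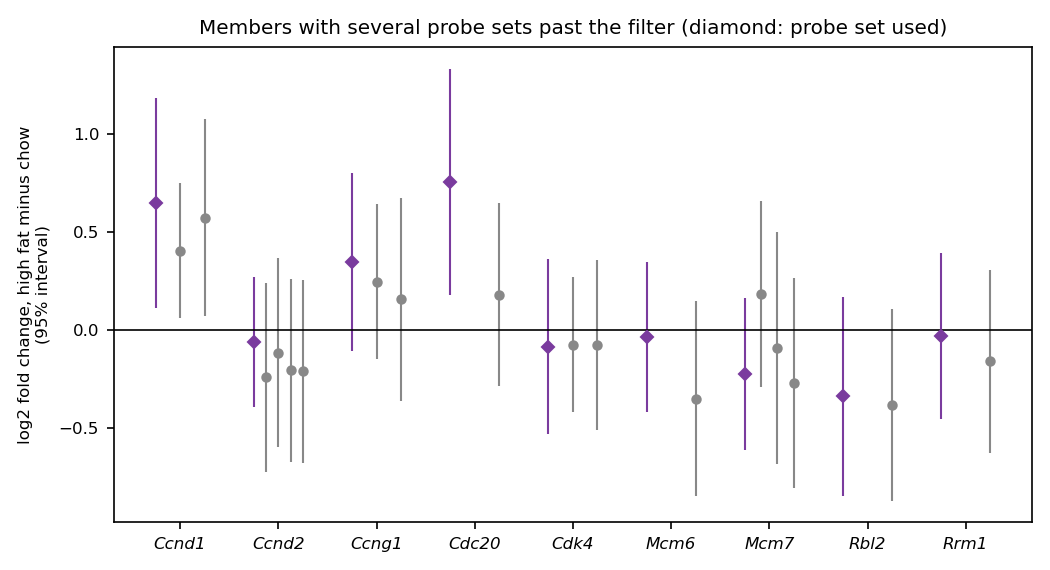
Log2 fold change (high fat minus chow, 95% interval) of every probe set past the filter for the 9 members with more than 1, with a diamond for the probe set of highest mean signal. All 3 probe sets of Ccnd1 lie above 0, all 5 of Ccnd2 below, and those of Mcm7 on both sides.

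Enzymes of deoxynucleotide supply did not differ between the diets beyond the spread of the pools. Rrm1, the large subunit of ribonucleotide reductase, had 111.7, 100.4 and 106.9 on high fat diet and 84.9, 115.5 and 130.2 on chow, a log2 fold change of -0.03 (interval -0.45 to 0.39, adjusted p = 0.983, limma). Rrm2, its small subunit, which accumulates in cells that replicate DNA, had 38.3, 51.4 and 38.1 against 41.6, 44.8 and 38.7, close to the filter, with 0.02 (-0.49 to 0.53). Tyms, thymidylate synthase, and Tk1, thymidine kinase, were under the filter at 2.3 to 30.7 and 3 to 18.7 over all pools. High fat and chow pools overlapped for all 4.

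The smallest unadjusted p-values of the tested members were those of Top2a, a proliferation antigen, and Cdc20, a mitotic gene. Top2a, the topoisomerase that untangles chromosomes before mitosis, had 53.3, 69.8 and 61.7 on high fat diet and 27.8, 35.2 and 42.8 on chow. All high fat pools lay above all chow pools, and the log2 fold change was 0.72 ± 0.24 (SE, interval 0.20 to 1.24, unadjusted p = 0.0111, adjusted p = 0.549, limma). The chow mean of Top2a, 35.3, lies under the filter, so that it was tested only through its high fat pools. Its value is a description. A second Top2a probe set read 1.6 to 4.9 on all arrays.

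Cdc20, the activator of the anaphase-promoting complex, had 101.4, 83.1 and 55.8 on high fat diet and 57.3, 35.9 and 40.3 on chow. High fat replicates 1 and 2 were above all chow pools and replicate 3 lay just below chow replicate 1. The log2 fold change was 0.76 ± 0.26 (SE, interval 0.18 to 1.33, unadjusted p = 0.0151, adjusted p = 0.584, limma), and a second probe set had 0.18 (unadjusted p = 0.409, limma). Values of Cdc20 and Top2a with each pool left out ranged from 0.58 to 0.98 and from 0.59 to 0.85.

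Ccna2, cyclin A2, had 73.9, 85.6 and 58.7 on high fat diet and 36.7, 69.8 and 76.1 on chow, with 0.28 (interval -0.32 to 0.88), and it was -0.02 without chow replicate 1. A second Ccna2 probe set, under the filter, had 44.8, 31.4 and 24.5 against 41, 31.3 and 40.5. It gave the opposite sign, -0.16 without a filter (unadjusted p = 0.578, limma). Racgap1, which organises the division furrow, had 53.5, 73.5 and 29.6 against 42.7, 34.2 and 63.9, with 0.10 (-0.62 to 0.82). A second Racgap1 probe set, far under the filter, had 10.8, 17.4 and 11.2 against 2.1, 4.6 and 7.8, without overlap, and 0.84 without a filter (unadjusted p = 0.0174, adjusted p = 0.782, limma). Stmn1, which destabilises microtubules and is also made by neurons, had 159.9, 283.1 and 166 against 173.5, 189.5 and 208.7, with 0.04 (-0.44 to 0.52). In the probe sets used, high fat replicate 2 was the highest pool for Ccna2, Racgap1 and Stmn1.

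Most members of mitosis were under the filter: 8 of 11 spindle and checkpoint genes, 2 of 3 measured mitotic cyclin and kinase genes, and Mki67. Mki67, the Ki-67 antigen, had 39.5, 42 and 22.4 on high fat diet and 24.9, 16.6 and 22 on chow. High fat replicates 1 and 2 were above all chow pools and replicate 3 was within their range, and the fit without a filter gave 0.56 (unadjusted p = 0.102, adjusted p = 0.862, limma). Plk1, a kinase of mitotic entry, had 57.3, 35.5 and 38.9 against 28.1, 28.8 and 14.5, without overlap, and 0.76 without a filter (unadjusted p = 0.0392, adjusted p = 0.814, limma). Aurkb, the kinase of the chromosomal passenger complex, had 37.6, 50.9 and 38.1 against 37.4, 33.3 and 26.9, where high fat replicate 1 lay just above the highest chow pool, and 0.32 without a filter (unadjusted p = 0.247, adjusted p = 0.907, limma). Aurka, the centrosome kinase, had 43.3, 51.4 and 30.5 against 28.5, 34.5 and 15.8, with overlap.

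In the probe sets used, the remaining low members had their pools mixed. A second Bub1 probe set had all high fat pools above all chow pools, but read only 1.4 to 3.2. Birc5 (survivin), Mad2l1, Bub1 and Bub1b (spindle checkpoint), Cdk1 (the mitotic kinase), Ccnb2 (cyclin B2) and Ube2c (the ubiquitin conjugating enzyme of the anaphase-promoting complex) lay between 1.3 and 38.7 on all arrays. Of the 18 members under the filter, 14 were below a signal of 50 on every array, 10 had a higher and 8 a lower value on high fat diet in the fit without a filter, and 2 had an unadjusted p under 0.05 there (Plk1 higher and Ccne1 lower), where 6.01% of all 22626 probe sets did. None of the 18 passed the adjusted threshold in that limma fit, where 0.0265% of all probe sets did. Both shares are over all probe sets, past and under the filter, and none was taken of those under it alone. Just outside the filter were E2f1 and Aurkb, at a mean level equal to a signal of 40.4 and 36.8, and just inside were Rrm2 and Top2a at 41.9 and 46.4. Plk1, Ccne1, Aurkb and Aurka were named here after their values were seen.

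**Figure D4:**
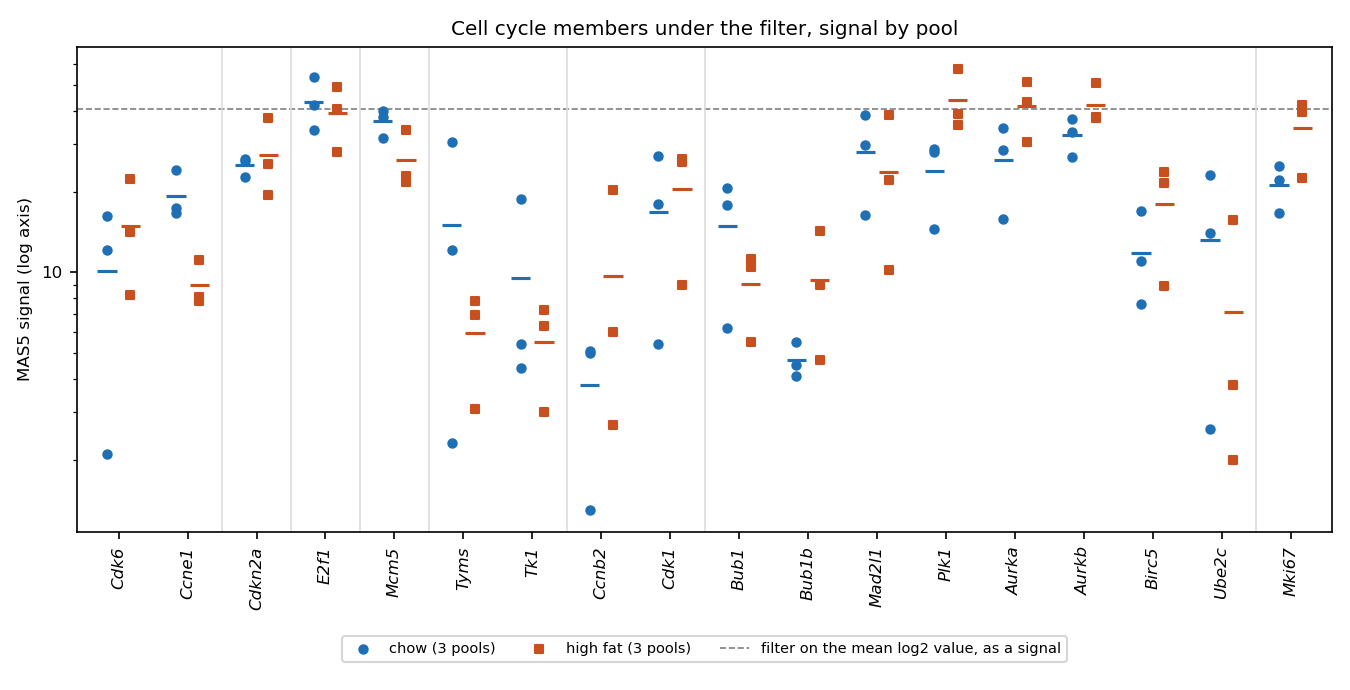
Signal of the 18 members under the filter (log axis) in each of 3 chow and 3 high fat pools, with bars at the group means and a dashed line at the filter (40.7). Nearly all points lie under 50, the pools of Plk1 and Aurkb separate upward and those of Ccne1 downward on high fat diet, and the others overlap. The share of all probe sets under the filter that separate was not counted, so these separations are a description.

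Other genes of the cell cycle gave no call either. Of 176 further genes in 5 lists, 157 had a probe set and 99 passed the filter. None passed the adjusted threshold in limma. An unadjusted p under 0.05 was found for 4, 1 higher and 3 lower, or 4.04% against 7.03% of all probe sets tested. Leaving out high fat replicate 3 made these 4 into 12. Leaving out any of high fat replicate 1, high fat replicate 2 and chow replicate 2 made them 2. The shares over all probe sets with these arrays left out are not given here, so these counts are a description. Means were higher for 44 and lower for 55, with a median of -0.02. The diets did not overlap for 15 of the 99, 6 higher and 9 lower, or 15.2% against 12.3% of all probe sets tested. By list this was 7 of 23 replication genes and 5 of 20 p53 target genes. It was 2 of 23 for mitosis, 1 of 8 for E2F and 0 of 25 for the other cyclins and kinases.

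Further replication genes gave 16 lower and 7 higher means of 23 tested, with a median of -0.10 and no test of the list. At an unadjusted p under 0.05 in limma 2 of the 23 were lower and 0 higher (8.70%, against 7.03% of all probe sets tested). The diets did not overlap for 7 of them, 6 lower (Rpa1, Orc3, Orc4, Pola1, Dnmt1 and Slbp) and 1 higher (Orc5), where 6.08% of all probe sets tested were lower without overlap and 6.26% higher. Rpa1, which coats single-stranded DNA, had 690.5 ± 9.8 on high fat diet and 890.5 ± 132.8 on chow (SD, n = 3 each), and its log2 fold change was -0.35 ± 0.14 (SE) with an adjusted p of 0.656 in limma. Orc4, a subunit of the origin recognition complex, had 89.0 ± 7.6 against 122.0 ± 17.1 and -0.43 ± 0.18 (adjusted p = 0.676). Neither passed over all probe sets.

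Further mitosis genes were split, 11 higher and 12 lower of 23 tested, with a median of -0.03 and none at an unadjusted p under 0.05 in limma. Pbk, a mitotic kinase, had 57.8 ± 20.2 against 36.7 ± 5.8 and a log2 fold change of 0.54 (adjusted p = 0.738, limma). The chow mean of Pbk lies under the filter, so that it was tested only through its high fat pools, and its value is a description. Cdc23, a subunit of the anaphase-promoting complex, had -0.30 (adjusted p = 0.776, limma). Of 25 other cyclins, kinases and regulators, 10 were higher and 15 lower, with a median of -0.05. Ccni, cyclin I, had 2103 ± 415 against 2578 ± 305 and -0.30 (adjusted p = 0.744, limma), and Cks1b, a kinase subunit, -0.34 (adjusted p = 0.780). Of 8 E2F and pocket protein genes, 5 were higher and 3 lower, with E2f4, a repressor E2F, at 0.35 (adjusted p = 0.767, limma) and Rbbp4, a histone-binding partner of the retinoblastoma protein, at -0.24 (adjusted p = 0.787).

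Of 20 p53 target and growth arrest genes, 11 were higher and 9 lower, with a median of 0.07. Phlda3, a p53 target that restrains Akt signalling, had 837.2, 1036 and 890.1 on high fat diet and 498.6, 566.6 and 680 on chow. All high fat pools were above all chow pools, with a log2 fold change of 0.66 ± 0.15 (SE, unadjusted p = 0.00133, adjusted p = 0.353, limma), the smallest p among the members and the 5 lists. Trp53inp1, another p53 target, went the other way at 370.9 ± 87.8 against 517.9 ± 92.4 (SD, n = 3 each) and -0.49 ± 0.20 (SE, adjusted p = 0.676, limma).

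By array, the mean over the 25 members varied little. Taken as log2 distance from the 6-array mean it was 0.00, 0.05 and 0.02 for high fat replicates 1 to 3 and between -0.03 and -0.02 on chow. It pools members of both signs, and role groups spread more. The 3 spindle members tested ran from -0.35 to 0.53 and the 6 helicase and clamp members from -0.23 to 0.13. Macrophage markers had higher means for 13 of 14 tested members, with list means of -0.03, 0.53 and 0.29 in the high fat and -0.17, -0.44 and -0.19 in the chow pools and summed signals (15 genes) of 3467 to 5656 against 2645 to 3357. Endothelial markers had 11 of 12 higher and means of 0.15, 0.28 and -0.02 against -0.16, -0.10 and -0.15, with summed signals of 2344 to 2851 against 2193 to 2323. Group means of Ccnd1, Cdc20 and Top2a were higher on high fat diet, as were the endothelial, macrophage, brown adipocyte and cardiac list means. The T and B lymphocyte list mean was higher by 0.25 log2 units (3 of 5 tested genes higher) and the white adipocyte one by 0.02. Smooth muscle, fibroblast and erythroid list means were lower. Ccnd1 and Top2a were highest in high fat replicate 2. So were the macrophage, endothelial, T and B lymphocyte, brown adipocyte and cardiac lists. Cdc20 was highest in high fat replicate 1. With the macrophage mean as a covariate none of the 25 had an unadjusted p under 0.05, where 2.70% of all probe sets did: Cdc20 had 0.83 ± 0.48 (SE) and Top2a 0.48 ± 0.43. That covariate was itself higher in every high fat pool than in every chow pool, and without it these SEs were 0.26 and 0.24. The fit therefore cannot cleanly separate it from the diet, and nothing is concluded from it. Brown adipocyte markers were higher for 8 of 8, with means of 0.18, 0.42 and 0.32 against -0.41, -0.45 and -0.06. Cardiac muscle markers had higher means for 13 of 13, with list means of -1.20, 1.28 and 0.95 against -0.13, 0.33 and -1.23, so that high fat replicate 1 was low and the diets overlapped. Smooth muscle markers had lower means for 9 of 10, with list means of -0.04, -0.14 and -0.04 against 0.00, 0.19 and 0.02. The part of these cell types in the values of the members was not tested.

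**Figure D5:**
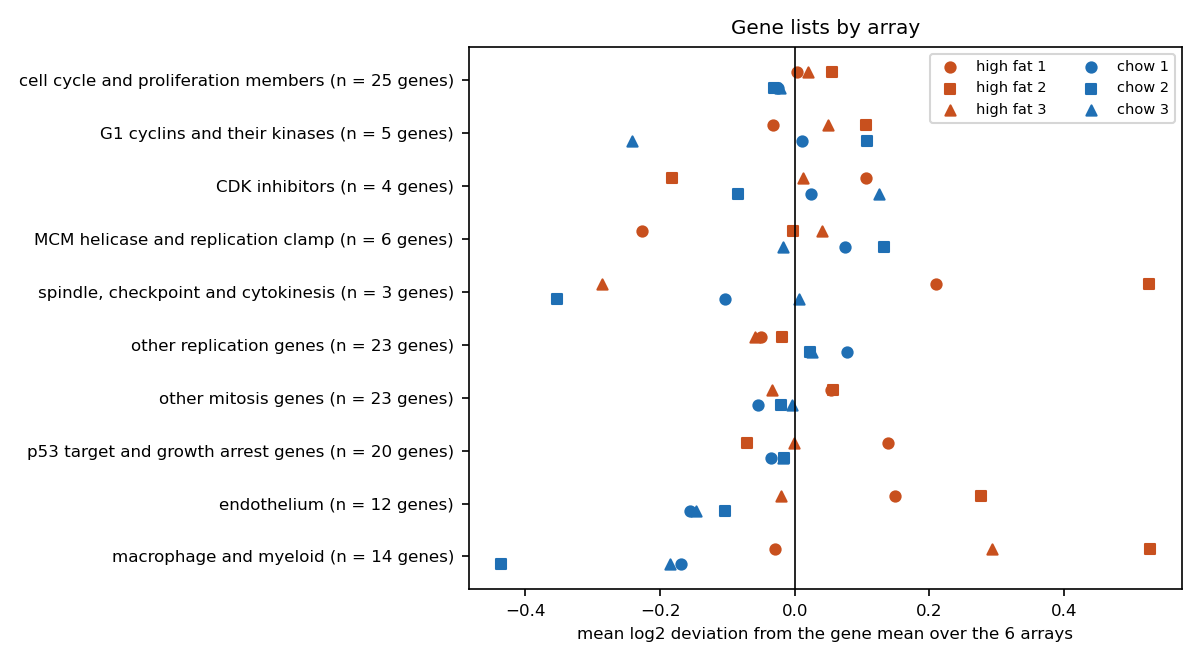
Mean log2 deviation from the gene mean over the 6 arrays, for the members, 4 of their role groups, 3 further cell cycle lists and 2 marker lists, with 1 symbol per array and the number of genes in brackets. The macrophage list spreads from -0.44 to 0.53 and the spindle group from -0.35 to 0.53. The mean over all members, which pools members of both signs, stays between -0.03 and 0.05.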

How the data were processed

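Aorta RNA pools of mice on 2 diets were measured on Affymetrix arrays. The authors deposited 1 signal intensity per probe set and array on a linear scale. Per the submitters' processing notes the tool was MAS5. Its settings were not given in the sources used. The 2% trimmed mean was 150.05 on each array, so the deposited scaling was kept. From 22690 probe sets, 64 controls were removed. Detection calls were not used here, and a low signal may be background. The array annotation gave 1 symbol to 20380 probe sets.

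Signals were transformed as log2(signal + 6), the pseudocount being the 10th percentile of all signals. The 13575 probe sets above the 40th percentile of the mean log2 value were fitted in limma 3.58.1 (R 4.3.3; lmFit, then eBayes with trend; two-sided tests), with p-values adjusted by Benjamini-Hochberg over all of them and a threshold of 0.05. The steps were tested on simulated data. 6 of the tested members used an _s_at or _x_at probe set, a type that can bind related transcripts. Python 3.11.15, pandas 2.3.3, numpy 2.4.6, scipy 1.17.1 and matplotlib 3.10.9 were used for tables and figures.

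The members and lists were chosen with earlier results of these data known. Named genes were those past the threshold, the 2 of smallest p and the 1 of highest signal in each role group, the 2 of smallest p in each further list, and Mki67, Top2a, Pcna, Ccnd1 and Cdkn1a. Trp53, also in that rule, was not analysed here. Same-numbered arrays of the diets had correlations of 0.03, 0.17 and -0.11 in their deviations from the diet means, so that the numbers did not pair the pools. Alternatives were other pseudocounts, filters, normalizations, variance models, array weights, the replicate block, marker covariates, probe set choices and each array left out. Promoter windows came from RefSeq (GRCm38.p6). P-values measure the spread between pools.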

Additional observations from a re-analysis of the deposited data

How the results depend on the processing

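No member and no gene of the 5 further lists passed the adjusted threshold under any of 20 alternatives, and the smallest adjusted p of a member was 0.233 (limma, Ccnd1 without high fat replicate 1). The count over all probe sets, 10, became 6 with the cardiac covariate, when the probe sets of a gene were averaged, without a filter and with quantile normalization, 5 without the variance trend, 5 with the replicate block, 0 with the macrophage covariate, and 5 to 16 with each array left out. Members at an unadjusted p under 0.05, 3 of 25, became 5 with the replicate block and 5 of 43 without a filter. They became 1 with the filter at the 60th percentile and with the gene mean. With the macrophage covariate they were 0, and with each array left out 2 to 4. Without a filter 6.01% of all probe sets had such a p. Apart from the macrophage covariate, the shares over all probe sets in the other alternatives are not given here, so these counts are a description. The macrophage covariate was itself higher in every high fat pool, so its counts of 0 do not separate it from the diet. The member median of -0.01 moved to -0.055 with equal array medians, -0.047 with the filter at the 60th percentile, -0.070 with the gene mean, 0.032 with the macrophage covariate and -0.028 to 0.046 with each array left out.

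Of 309 values of the 16 named members tested, 283 kept their sign and 26 turned, in 7 members that were near 0 or wide in spread. With the macrophage covariate Ccnd2 had 0.18, Rrm1 0.15, Rrm2 -0.18, Racgap1 -0.36 and Stmn1 -0.51. With the cardiac covariate Rrm1 had 0.027, Rrm2 -0.051 and Stmn1 -0.045. With array weights Rrm2 had -0.014 and Stmn1 -0.033, and Rrm2 had -0.026 with equal array medians and with quantile normalization. With each array left out Cdk4 ranged from -0.27 to 0.019, Ccnd2 from -0.19 to 0.037, Rrm1 from -0.20 to 0.095, Rrm2 from -0.11 to 0.082, Ccna2 from -0.017 to 0.45, Racgap1 from -0.16 to 0.42 and Stmn1 from -0.21 to 0.19. The cause of these turns was not tested. The number of arrays and the low signals of the mitotic genes limit the precision.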
